A study of Arabidopsis thaliana with 16 samples.

Results

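The step from zone 2 to zone 3 at pH 5.7 is the difference in transcript level between 2 consecutively numbered lengths of the Arabidopsis thaliana root. It was read from 4 of the 16 arrays of the study, chosen by their titles: 2 of zone 3 at pH 5.7 and 2 of zone 2 at pH 5.7. All probe sets other than the 64 controls were used, 22746 in number, of which 17945 passed a filter on dim values. The zone 3 group held roots 6 days old of the Columbia ecotype, grown for 5 days on medium of pH 5.7 and then kept for 24 h on fresh pH 5.7 medium that contained DMG. The zone 2 group had the same ecotype, age, growth and transfer, and differs from it in the labels only by the section of root. The other groups were zones 1 and 4 from the same treatment, and zones 1 to 4 from seedlings moved for the last 24 h to the same medium at pH 4.6, each with 2 arrays. No group carried a listed mutation or transgene. The labels call the zones developmental stages and do not name the tissue in each, so zone 2 and zone 3 are used here as numbered sections only.

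A root grows from a tip in which small cells divide. Older cells leave that region, lengthen, and then take on mature features such as root hairs, an endodermal barrier and thickened walls. Dividing and growing cells are rich in ribosomes and in the nucleolar machinery that builds them, while hair formation needs enzymes that loosen, fill and cross-link the wall. In samples made of many cells, as here, fewer cells of a type and less RNA per cell cannot be told apart. No sequence is printed here.

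The deposited intensities of all 16 arrays share the same trimmed mean, so a level is relative to the rest of its array. Zone 3 at pH 5.7 had the least alike pair of arrays in the study, with a Pearson correlation across tested probe sets of 0.835, against 0.923 for the zone 2 pair and 0.912 to 0.957 in the other 6 groups. Replicate 2 of each zone stood apart in the same way. The mean level of plastid-encoded genes, on the log2(value + 16) scale, was 7.76 and 10.3 in zone 3 and 8.21 and 9.75 in zone 2. The first quartile of intensity was 19.6 and 38.4 units in zone 3 and 17.7 and 30.4 units in zone 2. These values overlapped between the zones and split the replicates, not the groups. Arrays whose plastid mean exceeded that of the other array of their group by more than 1 on the log2 scale are called arrays of raised plastid mean: they were replicate 2 of zone 3 and of zone 2 at pH 5.7, of zone 4 at pH 5.7 and of zone 3 at pH 4.6. Their part in the results was not tested, and the main results are also given without them. The log2 ratio of the 3′ to the 5′ probe set, a measure of RNA length, also overlapped: for actin it was 6.18 and 4.98 in zone 3 and 5.81 and 5.35 in zone 2, and for ubiquitin 3.07 and 3.34 in zone 3 and 3.12 and 3.42 in zone 2.

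Of 43 marker genes of root cell types, 5 had a tested probe set with a single gene name. The root hair expansins EXPA7 and EXPA18 and the endodermal receptor kinase GSO1, which takes part in forming the Casparian strip, passed the test and were higher in zone 3. GSO1 had 1597 and 1681 intensity units in zone 3 and 58.9 and 141 units in zone 2, a log2 fold change of 3.93 ± 0.39 (SE; adjusted p = 2.56e-06). The meristem regulator BBM and the mitotic kinase AUR1 did not pass, with log2 fold changes of 0.64 ± 0.60 and -0.14 ± 0.48, and their arrays overlapped between zones. Markers of root cap, phloem, xylem and suberised endodermis had no tested probe set with a single gene name and were not analysed here.

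Transcript levels differed at 4943 of the 17945 probe sets (27.5%) between zone 3 and zone 2, with limma and Benjamini-Hochberg adjustment at a threshold of 0.05. Of these, 2225 (12.4%) were higher in zone 3 and 2718 (15.1%) were lower. Rises were fewer but larger. The median log2 fold change was 1.95 among the probe sets that rose and -1.69 among those that fell, against -0.02 over all tested probe sets. A change of at least 16-fold was reached by 188 of the rises and 46 of the falls, and one of at least 64-fold by 27 of the rises and 3 of the falls. Fold changes are on the log2(value + 16) scale, which understates the change of dim probe sets. Among the 10104 tested probe sets that stand for a named gene, 1143 (11.3%) were higher and 1507 (14.9%) lower. This fit took its spread from all 8 groups. With the 4 arrays of raised plastid mean left out, which leaves 1 array in each zone at pH 5.7, 1465 probe sets were higher and 1866 lower. With only the 4 arrays of the 2 zones in the fit, 1278 were higher and 1258 lower.

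The same fit gave the neighbouring steps, which share arrays with this one. The earlier step, zone 2 over zone 1 at pH 5.7, had 257 probe sets higher and 233 lower, and the later step, zone 4 over zone 3, had 1038 higher and 863 lower. The 15 named genes that rose most and the 15 that fell most from zone 2 to zone 3 are shown array by array in the plot of the largest rises and falls. These 30 were picked among genes whose arrays did not overlap between the zones. All 30 kept their call under each of the 14 alternative settings run, including leaving out each of the 4 arrays in turn.

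**Figure D1:**
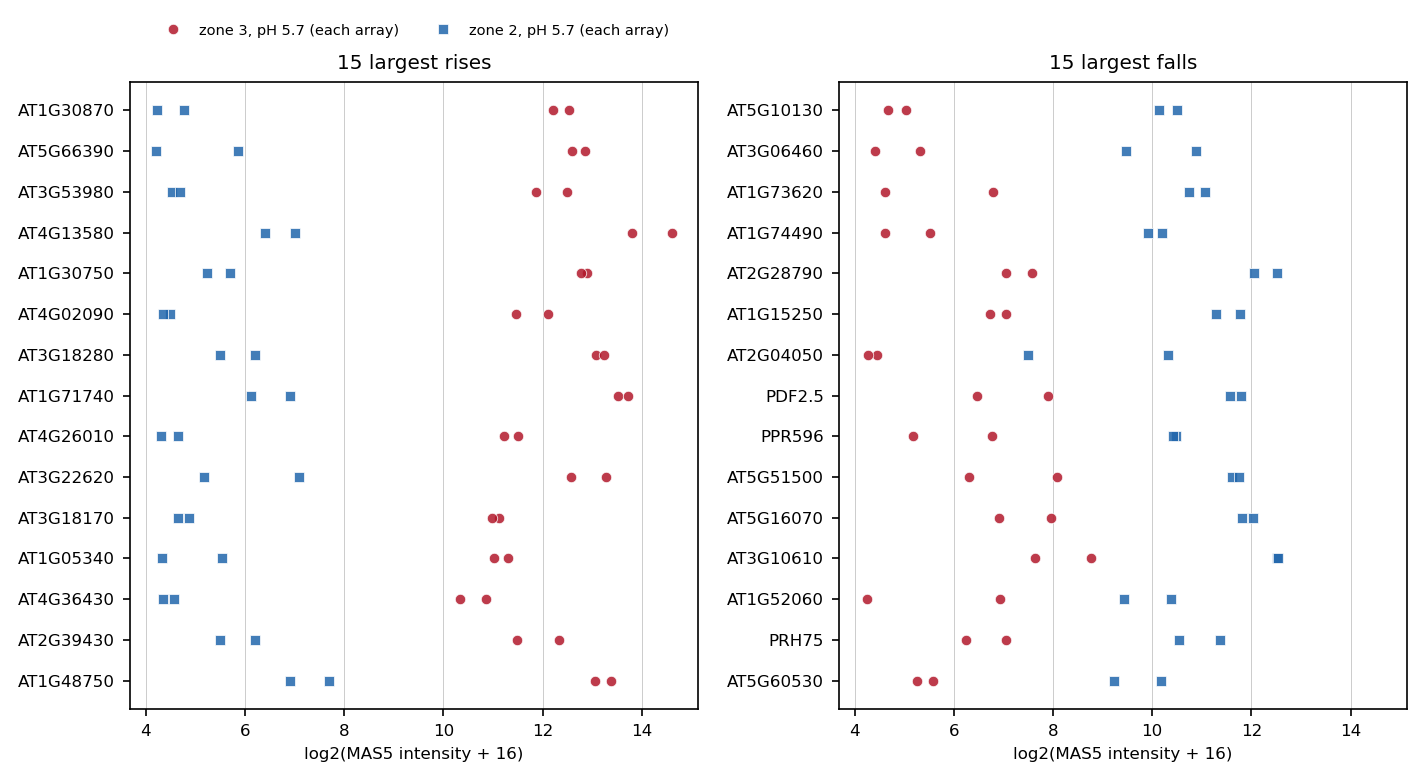
Values of the 15 named genes with the largest rises (left) and the 15 with the largest falls (right) from zone 2 to zone 3 at pH 5.7. The horizontal axis is log2(MAS5 intensity + 16), red circles are the 2 zone 3 arrays and blue squares the 2 zone 2 arrays, for genes picked among those whose zones do not overlap.

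Root hair genes were among the largest rises. Of 62 genes listed for root hairs and the cells that bear them, 5 were tested, 4 rose and none fell, beside 12.4% of all tested probe sets that rose. The median log2 fold change of the 5 was 5.40. AT1G30870, a class III peroxidase of root hair cells, had 4703 and 5908 intensity units in zone 3 and 2.74 and 11.4 in zone 2, a log2 fold change of 7.87 ± 0.65 (SE, n = 2 arrays per zone, as throughout; limma adjusted p = 5.39e-07). It was also low in zone 1, at 31.2 and 3.03 units, and had 405 and 516 units in zone 4, so both zone 3 arrays lay above those of every other zone at this pH. The peroxidase AT4G26010, likewise of root hair cells, had 2363 and 2898 intensity units in zone 3 and 3.77 and 8.94 in zone 2 (log2 fold change 6.89 ± 0.54, adjusted p = 3.43e-07).

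EXPA7 and EXPA18 encode expansins, proteins that loosen the wall where a hair bulges out. EXPA7 had 1394 and 3138 intensity units in zone 3 and 24.1 and 57 in zone 2 (log2 fold change 5.28 ± 0.61, adjusted p = 8.98e-06). EXPA18 had 1725 and 1793 intensity units in zone 3 and 7.06 and 60.1 in zone 2 (log2 fold change 5.40 ± 0.61, adjusted p = 7.9e-06). Both zone 3 arrays lay far above both zone 2 arrays for each gene, and zone 4 was lower again, at 81.6 and 176 units for EXPA7 and 159 and 364 units for EXPA18. Of 3 tested regulators of epidermal cell pattern, the transcription factor ATMYC1 fell, with 38 and 39 intensity units in zone 3 and 211 and 229 in zone 2 (log2 fold change -2.11 ± 0.45, adjusted p = 0.00221). TRY and JKD, which act in the same patterning, did not pass, with log2 fold changes of -0.54 ± 0.64 and 0.23 ± 0.47.

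Class III peroxidases, secreted enzymes that cross-link or loosen wall polymers with hydrogen peroxide, had more members higher than lower. Of 73 family members, 47 were tested, 20 rose and 4 fell, beside 12.4% and 15.1% of all tested probe sets. Their median log2 fold change was 1.19, and 19 rose without the arrays of raised plastid mean. The risers AT1G30870 and AT4G26010 are also counted in the root hair list. Probe sets of close paralogues can share signal. AT5G66390 had 7402 and 6195 intensity units in zone 3 and 2.39 and 42.4 in zone 2 (log2 fold change 7.69 ± 0.81, adjusted p = 4.04e-06). AT4G36430 had 1271 and 1834 intensity units in zone 3 and 4.41 and 7.86 in zone 2 (log2 fold change 6.13 ± 0.38, adjusted p = 8.21e-08). AT5G15180 had 1118 and 1259 intensity units in zone 3 and 1.99 and 8.38 in zone 2 (log2 fold change 5.84 ± 0.63, adjusted p = 5.29e-06). In each of these genes the lower zone 3 array exceeded the higher zone 2 array by over an order of magnitude. The 4 members that fell, named after their values were seen, were AT2G18980, AT5G24070, AT5G40150 and AT3G28200. AT2G18980 had 1913 and 368 intensity units in zone 3 and 5150 and 5081 in zone 2 (log2 fold change -2.58 ± 0.54, adjusted p = 0.00202), the largest fall in the family, and its 2 zone 3 arrays differed widely. Without zone 2 replicate 1, 2 of the 4 kept their call, and those of AT5G24070 and AT3G28200 were each lost with more than 1 of the arrays left out singly (highest adjusted p = 0.13 and 0.173). The calls of AT2G18980 and AT5G40150 were lost without the arrays of raised plastid mean (adjusted p = 0.0883 and 0.106).

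Genes of the dirigent family, whose products steer the coupling of phenolic radicals in lignin and lignan formation, rose in 7 of 14 tested members and fell in none. Among all tested probe sets 12.4% rose. Their median log2 fold change was 1.48. AT4G13580 had 14220 and 25110 intensity units in zone 3 and 69.2 and 112 in zone 2, a log2 fold change of 7.50 ± 0.71 (adjusted p = 1.71e-06). AT2G39430 had 2831 and 5125 intensity units in zone 3 and 29.4 and 57.1 in zone 2 (log2 fold change 6.05 ± 0.58), AT2G21100 had 4058 and 4801 intensity units in zone 3 and 38.1 and 91.1 in zone 2 (5.86 ± 0.42), and AT3G13650 had 4683 and 3969 intensity units in zone 3 and 105 and 219 in zone 2 (4.68 ± 0.77). These genes were low in both arrays of zone 2 and high in both of zone 3. AT1G55210 rose by 2.89 ± 0.33, with 2282 and 1737 intensity units in zone 3 and 217 and 297 in zone 2. The largest adjusted p among these 5 genes was 0.00028, that of AT3G13650. The calls of the other risers, AT1G58170 and AT4G11190, named after their values were seen, depended on single arrays. Their log2 fold changes were 1.15 without zone 3 replicate 2 and 1.42 without zone 3 replicate 1, respectively.

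Of 5 tested genes of lignin and phenylpropanoid synthesis, 2 rose and 1 fell. HCT, the acyltransferase that opens the branch to the main lignin units, had 5477 and 5637 intensity units in zone 3 and 943 and 747 in zone 2 (log2 fold change 2.70 ± 0.31, adjusted p = 1.05e-05). UGT72E3, a glucosyltransferase of lignin precursors, had 402 and 272 intensity units in zone 3 and 40.4 and 28.3 in zone 2 (log2 fold change 2.80 ± 0.45, adjusted p = 0.000241). Its relative UGT72E1 went the other way, with 2.76 and 10.9 intensity units in zone 3 and 40.6 and 95.7 in zone 2 (log2 fold change -1.82 ± 0.53, adjusted p = 0.0167), a call that was lost without zone 2 replicate 2 (adjusted p = 0.155) and without zone 3 replicate 1. In the wider family of UDP-glycosyltransferases, enzymes that attach sugars to small molecules, 7 of 41 tested members rose and 2 fell, shares near those of all tested probe sets, with a median log2 fold change of 0.14. Without zone 2 replicate 1, 4 of them rose. Of 4 tested genes of coumarin synthesis and iron deficiency, 1 rose and none fell (median -0.71), beside 12.4% of all tested probe sets that rose. That gene, AT3G13610, the hydroxylase that starts scopoletin synthesis, had 748 and 1090 intensity units in zone 3 and 118 and 164 in zone 2 (log2 fold change 2.56 ± 0.39, adjusted p = 0.000145). The other members, BGLU42, BHLH101 and PYE, had negative values and did not pass.

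**Figure D2:**
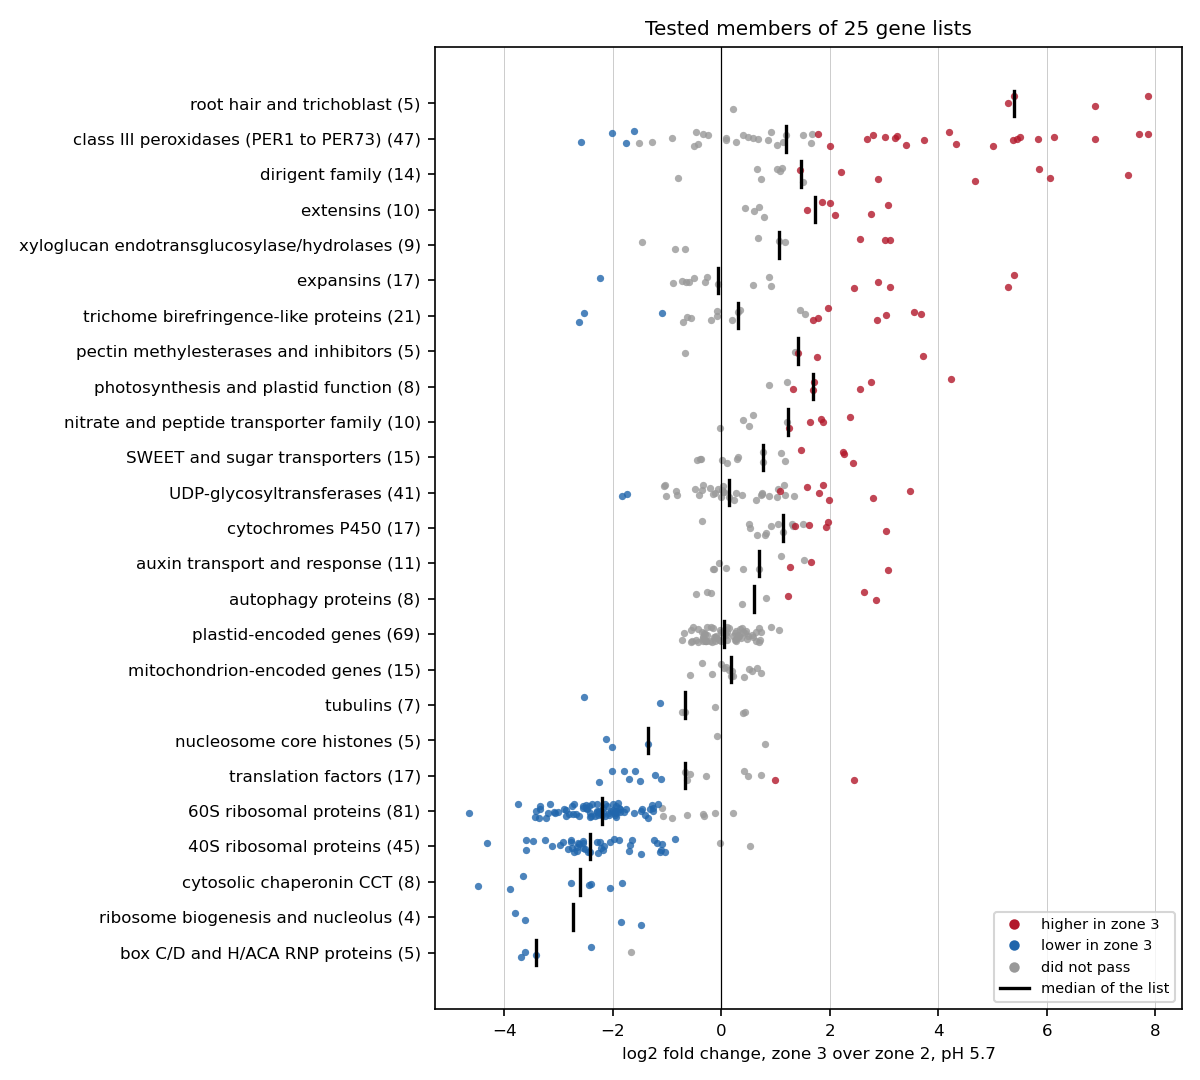
Log2 fold change of zone 3 over zone 2 at pH 5.7 for each tested member of 25 gene lists (number tested in parentheses), where red points were higher and blue points lower in zone 3 at an adjusted p under 0.05, grey points did not pass, and black bars are list medians. The ribosomal protein, cytosolic chaperonin, ribosome biogenesis and box C/D and H/ACA lists at the bottom lie almost wholly to the left. Translation factors lie on both sides. The root hair, peroxidase and dirigent lists at the top lie mostly to the right, and plastid-encoded genes centre on 0.

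Wall-remodelling families were mixed. Of all tested probe sets, 12.4% rose and 15.1% fell. Extensins, rod-like glycoproteins of the wall, rose in 6 of 10 tested members and fell in none, with a median log2 fold change of 1.72. HRGP1 had 1647 and 2764 intensity units in zone 3 and 167 and 341 in zone 2 (log2 fold change 3.07 ± 0.41, adjusted p = 4.16e-05). AT3G28550 had 561 and 566 intensity units in zone 3 and 30.4 and 139.5 in zone 2 (log2 fold change 2.77 ± 0.50, adjusted p = 0.000555). The extensin count was 2 without zone 2 replicate 1, 3 without zone 3 replicate 2 and 4 without the arrays of raised plastid mean. Expansins had 5 of 17 tested members higher and 1 lower, and a median of -0.06. EXPA7 and EXPA18 were the 2 largest rises among them. Of the other 3 that rose, EXLB1 had 226 and 387 intensity units in zone 3 and 26.7 and 14.8 in zone 2 (adjusted p = 0.000107). EXLA3 had 1064 and 403 intensity units in zone 3 and 75.9 and 72.7 in zone 2 (2.90 ± 0.58, adjusted p = 0.00142). EXLA1 had 3844 and 3870 intensity units in zone 3 and 850.5 and 559.6 in zone 2 (log2 fold change 2.46 ± 0.86, adjusted p = 0.0429), a call lost with any 1 of the 4 arrays left out, and without zone 2 replicate 2 its adjusted p was 0.18. EXPA9, named after its values were seen, was the one that fell, with 125 and 12.4 intensity units in zone 3 and 278 and 287 in zone 2 (log2 fold change -2.24 ± 0.53, adjusted p = 0.0049), and its call was lost without zone 3 replicate 2 (adjusted p = 0.0633).

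Xyloglucan endotransglucosylase/hydrolases, which cut and rejoin the polymer that ties cellulose together, rose in 3 of 9 tested members and fell in none (median 1.06). XTH20 had 324 and 458 intensity units in zone 3 and 23.8 and 45.1 in zone 2 (log2 fold change 3.03 ± 0.48, adjusted p = 0.000203), XTH21 had 2756 and 1106 intensity units in zone 3 and 180.4 and 196 in zone 2 (3.11 ± 0.68, adjusted p = 0.00277), and XTH32 had 184 and 277 intensity units in zone 3 and 34.5 and 17.4 in zone 2 (2.56 ± 0.46, adjusted p = 0.000617). Both zone 3 arrays exceeded both zone 2 arrays in all 3, and 2 other members fell once zone 3 replicate 1 was left out. The XTH32 call was lost without the arrays of raised plastid mean (adjusted p = 0.0625). Family 9 glycosyl hydrolases, the plant endoglucanases, had 2 of 11 tested members higher and 3 lower, beside 12.4% and 15.1% of all tested probe sets. GH9C1, which has a cellulose-binding module, rose most, with 1594 and 1616 intensity units in zone 3 and 38.7 and 46.2 in zone 2 (log2 fold change 4.80 ± 0.44, adjusted p = 1.15e-06). GH9C3 of the same subclass fell, with 22.7 and 16.1 intensity units in zone 3 and 128 and 149.7 in zone 2 (log2 fold change -2.13 ± 0.55, adjusted p = 0.00851), a call lost without zone 2 replicate 2 (adjusted p = 0.0518). In that fit none of the family fell, and 1 rose without zone 2 replicate 1 or zone 3 replicate 2.

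Trichome birefringence-like proteins, many of which acetylate wall polysaccharides, rose in 7 of 21 tested members and fell in 3, with a median of 0.31. TBL38 had 5605 and 2919 intensity units in zone 3 and 289 and 313 in zone 2 (log2 fold change 3.68 ± 0.76, adjusted p = 0.00174). TBL41 had 1237 and 1178 intensity units in zone 3 and 67.5 and 115 in zone 2 (3.55 ± 0.41, adjusted p = 9.46e-06). TBL39 moved oppositely, with 1914 and 806 intensity units in zone 3 and 5280 and 11390 in zone 2 (log2 fold change -2.63 ± 0.40, adjusted p = 0.000143), as did TBL36, named after its values were seen, with 53.1 and 112 intensity units in zone 3 and 511 and 543 in zone 2 (-2.53 ± 0.38, adjusted p = 0.000111). In a list matched by name for pectin methylesterases and their inhibitors, 3 of 5 tested members rose. These include PMEAMT, which was matched by name only and is not a pectin enzyme. The call of ATPMEPCRB depended on single arrays, with a log2 fold change of 1.39 without zone 2 replicate 2. PMEPCRF had 509 and 259 intensity units in zone 3 and 3.6 and 26.9 in zone 2 (log2 fold change 3.71 ± 0.51, adjusted p = 4.99e-05), while AT5G51500, another pectin methylesterase outside that list, was among the 15 largest falls, with 63.4 and 256 intensity units in zone 3 and 3089 and 3442 in zone 2 (log2 fold change -4.48 ± 0.46, adjusted p = 3.53e-06). None of 3 tested genes of primary wall synthesis passed: the cellulose-orienting COB had 0.62 ± 0.40, the cellulose synthase-like CSLD2 0.60 ± 0.35 and CSLC04 -0.55 ± 0.65.

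Several of the largest rises were in small secreted or membrane-bound proteins outside these lists. AT3G53980, AT3G18280, AT3G22620 and AT1G48750 belong to the lipid-transfer protein superfamily, whose members carry lipids outside the cell. AT3G53980 had 3735 and 5770 intensity units in zone 3 and 7.05 and 9.88 in zone 2 (log2 fold change 7.58 ± 0.44, adjusted p = 7.94e-08). AT3G18280 had 8622 and 9686 intensity units in zone 3 and 29.4 and 57.8 in zone 2 (7.30 ± 0.51, adjusted p = 1.86e-07). AT3G22620 had 9862 and 6064 intensity units in zone 3 and 20 and 120.5 in zone 2 (log2 fold change 6.79 ± 0.74), and AT1G48750 had 8539 and 10570 intensity units in zone 3 and 104 and 190.5 in zone 2 (5.92 ± 0.35). All 4 were high in zone 4 too, where AT3G53980 had 7674 and 13480 units and AT1G48750 had 13870 and 18330 units. AT3G18170, a family 61 glycosyltransferase, had 2214 and 2008 intensity units in zone 3 and 13.4 and 8.95 in zone 2 (log2 fold change 6.29 ± 0.41, adjusted p = 1.18e-07). AT1G30750, AT4G02090 and AT1G71740, whose functions are not given here, rose by 7.37 ± 0.66, 7.36 ± 0.84 and 7.11 ± 0.49. Of probe sets with no gene name, the 2 with the largest rises changed by 7.84 ± 0.57 and 7.63 ± 0.63.

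Ribosomal protein genes fell nearly throughout. Of 45 tested genes for proteins of the cytosolic 40S subunit, 43 fell and none rose, beside 15.1% of all tested probe sets that fell, and their median log2 fold change was -2.41. Of 81 tested genes for the 60S subunit, 73 fell and none rose, with a median of -2.20. Arrays of zone 3 all lay below those of zone 2 in 43 of the 40S genes and 76 of the 60S genes, beside 29.6% of all tested probe sets with zone 3 below and 25.1% with zone 3 above. The mean level of the 40S list on the log2(value + 16) scale was 9.88 and 9.75 in zone 3 and 11.91 and 12.15 in zone 2. Without the arrays of raised plastid mean, 35 genes of the 40S list and 65 of the 60S list still fell. Probe sets for near-identical ribosomal paralogues can share signal, so counts of single genes are uncertain.

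AT3G10610, a gene for protein S17 of the small subunit, had 419.9 and 183 intensity units in zone 3 and 5829 and 5939 in zone 2, a log2 fold change of -4.32 ± 0.32 (adjusted p = 2.51e-07). AT1G15250, a gene for protein L37 of the large subunit, had 116 and 89.7 intensity units in zone 3 and 2466 and 3500 in zone 2 (log2 fold change -4.64 ± 0.34, adjusted p = 2.27e-07). For both genes zone 3 was the lowest of the 4 zones at this pH, since zone 1 had 5713 and 7264 units and zone 4 630.4 and 559.9 units of AT3G10610, and zone 1 had 2756 and 3417 and zone 4 207 and 317 units of AT1G15250. Other large falls in the 40S list were AT1G23410 (-3.60 ± 0.29), AT5G15520 (-3.60 ± 0.33), AT4G34670 (-3.46 ± 0.27) and AT4G25740 (-3.25 ± 0.28). In the 60S list they were AT2G37190 (-3.74 ± 0.27), AT5G22440 (-3.44 ± 0.35), AT1G27400 (-3.41 ± 0.32) and AT2G19740 (-3.36 ± 0.29). The 40S genes that did not pass, AT2G16360 and AT5G09490, were named after their values were seen; AT2G16360 had 69.3 and 156 intensity units in zone 3 and 66.8 and 167 in zone 2, and its zones overlapped.

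Genes that build ribosomes fell with them. All 4 tested genes of ribosome biogenesis and the nucleolus fell (median -2.74), as did 4 of 5 tested proteins of the box C/D and H/ACA particles, which guide the chemical modification of ribosomal RNA (median -3.41); AT3G12860 is in both lists. AT3G03920, the H/ACA protein GAR1, had 645 and 534 intensity units in zone 3 and 6303 and 9511 in zone 2 (log2 fold change -3.69 ± 0.34, adjusted p = 1.39e-06). AT3G12860, a NOP56-like core protein of box C/D particles, had 3.52 and 13.9 intensity units in zone 3 and 303 and 262 in zone 2 (-3.63 ± 0.41, adjusted p = 7.24e-06). AT5G14520, a PESCADILLO protein needed for the large subunit, had 244 and 179 intensity units in zone 3 and 4303 and 2246 in zone 2 (-3.79 ± 0.36, adjusted p = 1.58e-06). PRH75, a nucleolar RNA helicase, was among the 15 largest falls, with 117 and 59.8 intensity units in zone 3 and 2638 and 1478 in zone 2 (log2 fold change -4.31 ± 0.38, adjusted p = 8.55e-07). RRP41, a subunit of the RNA exosome, and IMP4, a factor of small-subunit assembly, fell by 1.85 ± 0.27 and 1.48 ± 0.36; the IMP4 call was lost without zone 2 replicate 1 (adjusted p = 0.0616). AT5G18180 was the one that did not pass, at -1.65 ± 0.74, with overlapping zones.

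The cytosolic chaperonin CCT is a ring of related subunits that folds tubulin and actin. All 8 tested genes for it fell, with a median log2 fold change of -2.60, and all 8 fell with each of the 4 arrays left out in turn and without the arrays of raised plastid mean. AT5G16070 had 234 and 105 intensity units in zone 3 and 4147 and 3568 in zone 2 (log2 fold change -4.47 ± 0.33, adjusted p = 2.33e-07). AT3G11830 had 466 and 226 intensity units in zone 3 and 6176 and 4161 in zone 2 (-3.90 ± 0.34) and AT1G24510 had 741 and 532 intensity units in zone 3 and 7676 and 8578 in zone 2 (-3.66 ± 0.30). The smallest fall of the 8 was -1.82 ± 0.35, in AT3G02530, named after its values were seen. Zone 3 lay below zone 2 in every array of these genes. None of the 4 tested genes in a list matched by name for Cpn60-type organelle chaperonins passed, with a median of -0.48. That list and its median include CPNIFS, which was matched by name only and is not a chaperonin. Among tubulins, which CCT folds, 2 of 7 tested genes fell and none rose, beside 15.1% of all tested probe sets that fell. TUB5 had 291 and 128 intensity units in zone 3 and 1058 and 1360 in zone 2 (log2 fold change -2.53 ± 0.39, adjusted p = 0.000156). TUA6 had 1508 and 867 intensity units in zone 3 and 2748 and 2304 in zone 2 (-1.13 ± 0.36, adjusted p = 0.0276). The TUA6 call was lost without any 1 of the arrays except zone 3 replicate 1. Its log2 fold change was -0.73 without zone 3 replicate 2.

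Translation factors, which load and move the ribosome, fell in 8 of 17 tested members and rose in 2 (median -0.66). Of all tested probe sets, 15.1% fell and 12.4% rose. The falls of AT1G76810 and AT2G40290, named after their values were seen, depended on single arrays. Their log2 fold changes were -0.71 and -1.24 without zone 2 replicate 1. AT5G44320, a subunit of initiation factor eIF3, had 714 and 347 intensity units in zone 3 and 3348 and 1769 in zone 2 (log2 fold change -2.25 ± 0.42, adjusted p = 0.000794). AT1G77840, an initiation factor eIF5, had 596 and 396 intensity units in zone 3 and 2593 and 1573 in zone 2 (-2.02 ± 0.28, adjusted p = 6.29e-05). AT5G54940, of the eIF1 (SUI1) family, rose, with 4085 and 2567 intensity units in zone 3 and 642 and 521 in zone 2 (log2 fold change 2.45 ± 0.33, adjusted p = 4.64e-05). The other that rose, AT1G54290, is of the same family and was named after its values were seen, with 336 and 329 intensity units in zone 3 and 137 and 185 in zone 2 (log2 fold change 0.99 ± 0.28, adjusted p = 0.0159). For both, zone 3 lay above zone 2 in all arrays, and the AT1G54290 call was lost without zone 2 replicate 1 (adjusted p = 0.13). LSM proteins, which bind and process other RNAs, fell in 3 of 6 tested members, and none passed without zone 2 replicate 2.

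**Figure D3:**
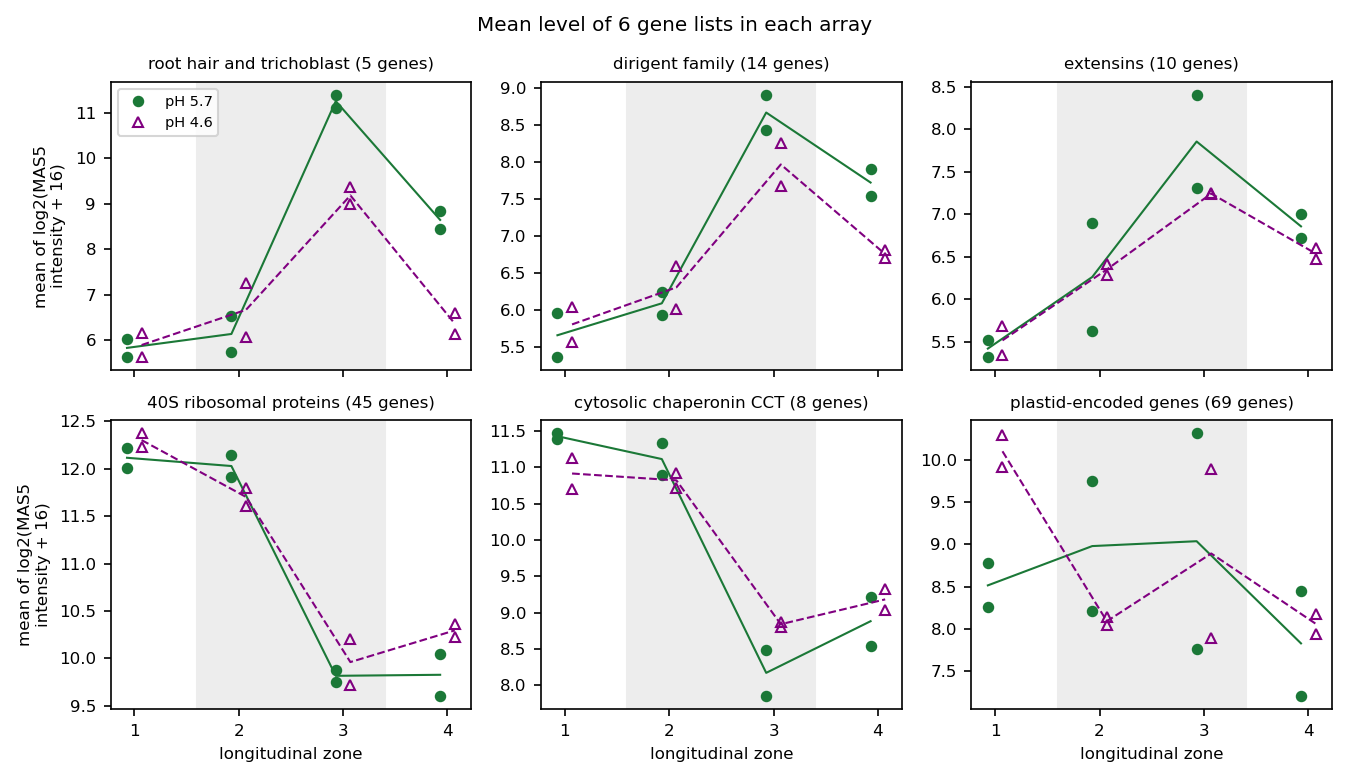
Mean of log2(MAS5 intensity + 16) over the tested members of 6 gene lists in each of the 16 arrays, by longitudinal zone, where filled green circles are arrays at pH 5.7 and open purple triangles arrays at pH 4.6, lines join group means, and grey marks the step from zone 2 to zone 3. The 40S and CCT lists fall between zones 2 and 3 at both pH values, the root hair, dirigent and extensin lists peak in zone 3, and plastid-encoded genes at pH 5.7 differ more between the replicates of zone 2 and of zone 3 than between these zones.

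Genes of cell division were sparsely named on the array and fell in part, beside 15.1% of all tested probe sets that fell. Replication genes fell in 1 of 5 tested members, near that share. Of 5 tested nucleosome core histones, HTB4, HTB1 and HTB2 fell. HTB4 had 2207 and 1252 intensity units in zone 3 and 9796 and 5485 in zone 2 (log2 fold change -2.13 ± 0.35, adjusted p = 0.00026). HTB1 had 376 and 438 intensity units in zone 3 and 1493 and 1887 in zone 2 (-2.01 ± 0.29, adjusted p = 7.9e-05). HTB2 fell by 1.35 ± 0.42, a call lost without any 1 of the arrays except zone 3 replicate 2 (highest adjusted p = 0.154), and HTB11 and AT2G28720 did not pass, at -0.07 ± 0.37 and 0.80 ± 0.41. Of 5 tested genes of mitosis and cytokinesis, 2 fell: the spindle checkpoint protein BUB3.1, with 52.5 and 5.69 intensity units in zone 3 and 268 and 166 in zone 2 (log2 fold change -2.56 ± 0.49, adjusted p = 0.00101), and the Aurora kinase AUR3, with 2.52 and 52.6 intensity units in zone 3 and 159.8 and 115 in zone 2 (-2.09 ± 0.49, adjusted p = 0.00439). AUR1, AUR2 and KEU did not pass. Of 5 tested replication genes, POLA3 fell, at -1.43 ± 0.39, a call lost without zone 2 replicate 2 (adjusted p = 0.0619), and the helicase subunit PRL, ICU2, PSF2 and TOPII did not pass. UBC20, a ubiquitin-conjugating enzyme of dividing cells, had 83.6 and 262 intensity units in zone 3 and 899 and 854 in zone 2 (log2 fold change -2.42 ± 0.38, adjusted p = 0.000158).

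Among 5 tested regulators of the meristem and stem cell niche, LHW, a transcription factor of vascular cell divisions, fell, with 230.1 and 170 intensity units in zone 3 and 566 and 477 in zone 2 (log2 fold change -1.32 ± 0.30, adjusted p = 0.00307). UPB1, PHV, JKD and BBM did not pass. IQ-domain proteins, which link calmodulin to microtubules, fell in 3 of 13 tested members and rose in 1, beside 15.1% and 12.4% of all tested probe sets. IQD18 fell most, with 27 and 4.39 intensity units in zone 3 and 139.6 and 121 in zone 2 (log2 fold change -2.30 ± 0.46, adjusted p = 0.00134). The other 2 that fell, iqd32 and IQD16, named after their values were seen, each lost their call with more than 1 of the arrays left out singly (highest adjusted p = 0.101 and 0.0714). NET1A, which binds actin at plasmodesmata, had 10.7 and 3.3 intensity units in zone 3 and 134 and 119.8 in zone 2 (log2 fold change -2.65 ± 0.48, adjusted p = 0.000576). The other 6 tested NET genes did not pass. RALFL34, a secreted peptide of lateral root initiation, had 185 and 213 intensity units in zone 3 and 1522 and 1588 in zone 2 (log2 fold change -2.87 ± 0.31, adjusted p = 4.79e-06), while its relative RALFL27 went the other way, with 2070 and 1317 intensity units in zone 3 and 120.4 and 204 in zone 2 (3.27 ± 0.56, adjusted p = 0.000378).

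The largest falls of all lay in genes of varied function. AT5G10130, of the pollen Ole e 1 family of secreted proteins, had 16.9 and 9.59 intensity units in zone 3 and 1435 and 1106 in zone 2, a log2 fold change of -5.46 ± 0.52 (adjusted p = 1.71e-06). It was higher still in zone 1, at 4554 and 3684 units, and had 4.9 and 4.49 units in zone 4. AT3G06460, an ELO-type fatty acid elongase, had 23.7 and 5.21 intensity units in zone 3 and 1880 and 697 in zone 2 (log2 fold change -5.32 ± 0.68, adjusted p = 2.76e-05). AT1G73620 and AT2G28790, both of the thaumatin superfamily, had 8.59 and 94.9 intensity units in zone 3 and 1706 and 2122 in zone 2, and 176 and 117 intensity units in zone 3 and 4256 and 5870 in zone 2 (log2 fold changes -5.20 ± 0.68 and -4.97 ± 0.41). The defensin PDF2.5 had 72.6 and 222 intensity units in zone 3 and 3016 and 3544 in zone 2 (log2 fold change -4.50 ± 0.43, adjusted p = 1.71e-06), while the defensin-like LCR69 rose, with 6164 and 3768 intensity units in zone 3 and 283 and 483 in zone 2 (3.65 ± 0.45, adjusted p = 1.92e-05). AT2G04050, a MATE-type transporter, had 5.84 and 3.42 intensity units in zone 3 and 1254 and 164 in zone 2 (log2 fold change -4.54 ± 0.68), and its 2 zone 2 arrays differed widely.

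AT5G60530, a late embryogenesis abundant protein related to root cap proteins, had 22.5 and 32.2 intensity units in zone 3 and 1138 and 582 in zone 2 (log2 fold change -4.27 ± 0.49, adjusted p = 9.83e-06), and AT1G52060, a mannose-binding lectin, had 3.1 and 106 intensity units in zone 3 and 1318 and 679.7 in zone 2 (-4.32 ± 0.65, adjusted p = 0.000122). Both already fell in the earlier step, where zone 1 had 5099 and 5721 units of AT5G60530 and 6547 and 12920 units of AT1G52060 (zone 2 over zone 1: -2.70 ± 0.49 and -3.26 ± 0.65; adjusted p = 0.00652 and 0.0121). The kinase AT1G74490 fell by 4.98 ± 0.46 and the pentatricopeptide repeat protein PPR596 by 4.49 ± 0.39. NDB4, an alternative NADH dehydrogenase of mitochondria, had 2.8 and 31.8 intensity units in zone 3 and 631 and 458 in zone 2 (log2 fold change -4.21 ± 0.44, adjusted p = 4.14e-06), the largest change among 7 tested genes of mitochondrial import and respiration. Of probe sets with no gene name, the 2 with the largest falls changed by -6.29 ± 0.41 and -6.14 ± 0.56.

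Sugar transporters rose in 4 of 15 tested members and fell in none, beside 12.4% of all tested probe sets that rose (median 0.76), with 2 higher without zone 3 replicate 1. SWEET17, a fructose carrier of the vacuole, had 635 and 300.2 intensity units in zone 3 and 62.9 and 73.4 in zone 2 (log2 fold change 2.43 ± 0.38, adjusted p = 0.000151). The sucrose carrier SWEET14 had 173 and 80.9 intensity units in zone 3 and 10.8 and 13.6 in zone 2 (2.27 ± 0.46, adjusted p = 0.00153). The nitrate and peptide transporter family rose in 5 of 10 tested members and fell in none (median 1.23), but the count was 1 without zone 2 replicate 1 and 3 without either zone 3 array. Its glucosinolate carriers were both higher, GTR2 with 163 and 101 intensity units in zone 3 and 3.51 and 24 in zone 2 (log2 fold change 2.37 ± 0.53, adjusted p = 0.00318) and GTR1 with 1025 and 368 intensity units in zone 3 and 139 and 173 in zone 2 (1.88 ± 0.45, adjusted p = 0.00495). The GTR2 call was lost without zone 2 replicate 1 (adjusted p = 0.0504) and the GTR1 call without zone 3 replicate 1 (adjusted p = 0.062). CHX16, a cation/proton exchanger, had 165 and 274 intensity units in zone 3 and 6.06 and 42.8 in zone 2 (log2 fold change 2.67 ± 0.53, adjusted p = 0.0012).

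Most tested nuclear genes of photosynthesis rose with all arrays in the fit. Of 8 tested, 6 rose and none fell (median 1.70), beside 12.4% of all tested probe sets that rose. The count was 3 without the arrays of raised plastid mean, 3 without zone 2 replicate 1 and 3 without zone 3 replicate 2. PSAE-1, a subunit of photosystem I, had 439 and 408 intensity units in zone 3 and 3.58 and 11.7 in zone 2 (log2 fold change 4.24 ± 0.40, adjusted p = 1.68e-06). PSBW of photosystem II had 503 and 762 intensity units in zone 3 and 70.9 and 84.9 in zone 2 (2.76 ± 0.41, adjusted p = 0.000115), and the antenna protein LHCB4.1 had 241 and 132 intensity units in zone 3 and 25.3 and 10.7 in zone 2 (2.56 ± 0.38, adjusted p = 0.000102). These 3 genes were higher in both zone 3 arrays than in either zone 2 array. Of 69 tested genes that the plastid genome itself encodes, none passed with all arrays in the fit, and their median was 0.04. Without zone 3 replicate 1, 7 of them rose, and without zone 3 replicate 2, 4 fell. None of 15 tested mitochondrion-encoded genes passed with all arrays, and 2 rose without zone 3 replicate 1 (median 0.18).

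Among genes of hormone response and recycling, 3 of 11 tested auxin genes rose and none fell (median 0.70). For comparison, 12.4% of all tested probe sets rose and 15.1% fell. LBD16, a transcription factor of lateral root initiation, had 218 and 325 intensity units in zone 3 and 21.6 and 13.5 in zone 2 (log2 fold change 3.08 ± 0.67, adjusted p = 0.00262), and the Aux/IAA repressor IAA18 had 207 and 296 intensity units in zone 3 and 72 and 63.3 in zone 2 (1.66 ± 0.38, adjusted p = 0.00377). No gene of the list passed without the arrays of raised plastid mean, LBD16 and IAA18 included (adjusted p = 0.119 and 0.0928). Autophagy genes rose in 3 of 8 tested members, all of the ATG8 family that coats the forming autophagosome. ATG8E had 389 and 473 intensity units in zone 3 and 42.2 and 50 in zone 2 (log2 fold change 2.84 ± 0.36, adjusted p = 2.32e-05). ATG8H had 2954 and 3092 intensity units in zone 3 and 436 and 511 in zone 2 (2.64 ± 0.27, adjusted p = 3.53e-06). The call of ATG8F depended on zone 3 replicate 2, without which its log2 fold change was 0.95. Of 7 tested calmodulin-like genes, CML42 rose and CML30 fell. The CML30 call depended on single arrays, with a log2 fold change of -1.215 without zone 3 replicate 2. The calcium sensor CML42 had 745 and 1700 intensity units in zone 3 and 64.8 and 141 in zone 2 (log2 fold change 3.34 ± 0.50, adjusted p = 0.000107), and the stress and senescence regulator WRKY53 had 1389 and 1674 intensity units in zone 3 and 253 and 306 in zone 2 (2.39 ± 0.48, adjusted p = 0.00151). Serine carboxypeptidase-like genes rose in 4 of 24 tested members and fell in 4. The largest rise among them was in scpl48, with 2517 and 2916 intensity units in zone 3 and 181 and 152 in zone 2 (log2 fold change 3.91 ± 0.27, adjusted p = 1.77e-07). The calls of scpl22, which rose, and scpl42, which fell, depended on single arrays. So did those of SCPL45, which rose, and of scpl26 and SCPL34, which fell, all named after their values were seen. In each gene of this paragraph given with its intensities, both zone 3 arrays lay above both zone 2 arrays.

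Families of metabolism and membrane traffic had scattered calls. Of all tested probe sets, 12.4% rose and 15.1% fell. Cytochromes P450, oxidative enzymes of many pathways, rose in 5 of 17 tested members, but in 2 without zone 2 replicate 1 and in 8 without zone 3 replicate 1. CYP718 rose most, with 302 and 131 intensity units in zone 3 and 3.14 and 19.9 in zone 2 (log2 fold change 3.04 ± 0.49, adjusted p = 0.00023). Glutathione S-transferases, which conjugate small molecules, rose in 4 of 12 and fell in 1, with 2 higher without zone 2 replicate 1. GSTU28 had 420.5 and 769.7 intensity units in zone 3 and 29.2 and 45.9 in zone 2 (log2 fold change 3.47 ± 0.45, adjusted p = 2.92e-05). Among beta-glucosidases 2 of 10 rose, and 1 without zone 2 replicate 2; BGLU46, whose product acts on lignin precursor glucosides, had 112 and 335 intensity units in zone 3 and 14.5 and 7.39 in zone 2 (log2 fold change 2.99 ± 0.51, adjusted p = 0.000358). Of 11 tested ubiquitin-conjugating enzymes 3 rose and UBC20 fell, and UBC29 had 787 and 777 intensity units in zone 3 and 80.5 and 159 in zone 2 (log2 fold change 2.62 ± 0.35, adjusted p = 3.52e-05). None of 6 tested exocyst subunits, which tether secretory vesicles, and none of 4 tested vacuolar pump genes passed, with medians of -0.10 and 0.43.

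Whether the step was the same in roots moved to acid medium was asked with the zone 3 and zone 2 arrays at pH 4.6, which are not in the pH 5.7 contrast, though both steps take their spread and the filter from the same fit. At pH 4.6, 3142 probe sets (17.5%) passed, 1621 (9.03%) higher and 1521 (8.48%) lower in zone 3. With 1 of the 4 arrays at pH 4.6 left out, the count was 1447 (without zone 2 replicate 1), 1783 (without zone 3 replicate 1), 2041 (without zone 3 replicate 2) or 2137 (without zone 2 replicate 2). Of the 2225 that rose at pH 5.7, 1141 (51.3%) also rose at pH 4.6, which is 70.4% of the pH 4.6 rises. Of the 2718 that fell at pH 5.7, 1179 (43.4%) also fell at pH 4.6, which is 77.5% of the pH 4.6 falls. Calls in opposite directions were made at 1 of the rises and 3 of the falls. Without regard to the test at pH 4.6, 92.9% of the rises kept their sign there, against 49.1% of all tested probe sets above 0, and 93.3% of the falls kept theirs, against 50.9% below 0. The median log2 fold change at pH 4.6 was -1.72 for the 40S list, -1.61 for the 60S list and -1.82 for CCT, with 38 of 45, 65 of 81 and 7 of 8 members lower. The peroxidase count at pH 4.6 was 22 higher and 1 lower of 47.

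The difference between the pH 5.7 step and the pH 4.6 step passed at 80 probe sets (0.446%), 36 (0.201%) with a higher value at pH 5.7 and 44 (0.245%) with a lower one, and at 2128 before adjustment at p under 0.05. Of the probe sets that rose at pH 5.7, 40 passed this test, and of those that fell, 19. The count depended on single arrays and ran from 20 (without zone 3 pH 4.6 replicate 2) to 547 (without zone 3 pH 5.7 replicate 1) with 1 of the 8 arrays left out. It was 1 without the arrays of raised plastid mean, a fit in which 3 of the 4 groups held 1 array less than in the full design. Root hair genes also rose at pH 4.6, with log2 fold changes of 4.18 ± 0.65 for AT1G30870, 2.55 ± 0.61 for EXPA7 and 2.25 ± 0.61 for EXPA18. None of these passed the test of the difference, with values of 3.69 ± 0.92, 2.73 ± 0.86 and 3.16 ± 0.86 and adjusted p = 0.0955, 0.21 and 0.138.

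Among the largest rises, AT3G53980 passed the test of the difference: its step was 7.58 ± 0.44 at pH 5.7 and 4.26 ± 0.44 at pH 4.6, a difference of 3.31 ± 0.62 (adjusted p = 0.028). At pH 4.6 it had 347 and 519 units in zone 3 and 9.83 and 4.39 units in zone 2. AT1G05340, of a family of small cysteine-rich membrane proteins linked to stress tolerance, rose by 6.23 ± 0.52 at pH 5.7, where it had 2518 and 2058 intensity units in zone 3 and 30.3 and 4.08 in zone 2. At pH 4.6 it had 1226 and 769 units in zone 3 and 284 and 396 in zone 2, so zone 2 was higher than at pH 5.7 and the step smaller, at 1.49 ± 0.52. The receptor-like kinase AT1G51830 showed the same arrangement, with 589 and 788 intensity units in zone 3 and 44.3 and 3.22 in zone 2 at pH 5.7, and 794 and 924 units in zone 3 and 673 and 690.1 in zone 2 at pH 4.6. Its step was 4.36 ± 0.41 at pH 5.7 and 0.32 ± 0.41 at pH 4.6. AT4G33730 differed through zone 3 instead: it had 314 and 288 intensity units in zone 3 and 3.31 and 7.42 in zone 2 at pH 5.7, against 13.4 and 11.5 units in zone 3 and 8.28 and 7.05 in zone 2 at pH 4.6.

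At the opposite end were genes that stepped up more between zones 2 and 3 at pH 4.6 than at pH 5.7. AT5G09480, a hydroxyproline-rich glycoprotein family gene, had 34.7 and 86.5 intensity units in zone 3 and 14.2 and 23.8 in zone 2 at pH 5.7, and 2408 and 2756 units in zone 3 and 40.6 and 6.51 in zone 2 at pH 4.6. At pH 5.7 its high level appeared in zone 4, at 3659 and 3401 units, and the zone 4 over zone 3 step was 5.62 ± 0.41 (adjusted p = 9.96e-07). AT4G38080, AT5G49350, AT2G23540, AT2G22510 and AT2G35380, the other 5 with the most negative differences, had the same order of levels, with zone 4 at pH 5.7 above both zone 3 arrays of that pH. The zone 4 over zone 3 step at pH 5.7 was 5.72 ± 0.43, 4.56 ± 0.49, 6.38 ± 0.42, 5.18 ± 0.38 and 5.25 ± 0.49 in these genes. Their step from zone 2 to zone 3 at pH 5.7 passed in AT4G38080 (2.47 ± 0.43) and AT2G23540 (1.81 ± 0.42) and not in the others.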

How the data were processed

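The data were 16 Affymetrix ATH1 arrays of root RNA, 2 for each of 4 zones at pH 5.7 and pH 4.6. Biotin-labelled cRNA came from total RNA by a 2-cycle amplification, per the labels' protocols. The authors deposited 1 linear intensity per probe set and array, made with MAS5 per the submitters' processing notes, with no version or scaling target stated there. No detection call, genome build or coordinate was used. A platform table gave 13513 probe sets a single gene, 503 several, and did not list 8730; names were updated by Entrez identifier in RefSeq (TAIR10.1), which held 13436. A gene was represented by its probe set of highest mean.

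Intensities were taken as log2(value + 16). Probe sets entered where at least 1 group mean reached the 40th percentile of group means (5.97), which kept 17945 of 22746. limma 3.58.1 in R 4.3.3 (lmFit, eBayes with intensity trend) fitted 8 group means, with 8 residual and 7.87 prior degrees of freedom. P-values were two-sided and adjusted by Benjamini-Hochberg over all 17945, with a threshold of 0.05. The fit was tested on simulated data. The labels do not say that replicates came from separate cultures, so the p-values reflect differences among these samples alone and may carry technical spread only. No 2 arrays held the same values. The number of arrays limits the precision.

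The zones compared, the gene lists and the tests were chosen with earlier results of these data known, and part of the lists were added once gene names were seen. Named genes were the 15 largest rises and falls with separated arrays, up to 5 changed members of each list (all members of lists of 6 or fewer), the 6 largest pH differences each way and up to 2 unnamed probe sets each way; others are marked as named after their values were seen. Alternatives were the pseudocount, filter, centring, quantile normalization, intensity trend, replicate block, left-out arrays, arrays used and, for lists, the mean over all probe sets of a gene.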

Additional observations from a re-analysis of the deposited data

Results flagged for a closer look

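In 12 genes the zone 3 over zone 2 step differed most between pH 5.7 and pH 4.6 among named genes that passed the limma test of that difference. Values are the log2 fold change at pH 5.7 minus that at pH 4.6, ± SE, with 2 arrays per group. The 6 positive differences were AT1G05340 (4.74 ± 0.74, adjusted p = 0.00872), AT4G30320 (4.25 ± 0.83, adjusted p = 0.0343), AT1G51830 (4.03 ± 0.57, adjusted p = 0.00358), AT5G24570 (3.70 ± 0.62, adjusted p = 0.0133), AT4G33730 (3.63 ± 0.65, adjusted p = 0.0198) and AT4G30670 (3.54 ± 0.59, adjusted p = 0.0133). The 6 negative ones were AT5G09480 (-5.13 ± 0.59, adjusted p = 0.000551), AT4G38080 (-4.82 ± 0.61, adjusted p = 0.00128), AT5G49350 (-4.75 ± 0.69, adjusted p = 0.00448), AT2G23540 (-4.75 ± 0.60, adjusted p = 0.00125), AT2G22510 (-4.75 ± 0.54, adjusted p = 0.000551) and AT2G35380 (-4.25 ± 0.69, adjusted p = 0.0113).

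AT5G24570 had 1285 and 1346 intensity units in zone 3 and 482 and 693 in zone 2 at pH 5.7, and 685 and 412 units in zone 3 and 2110 and 4724 in zone 2 at pH 4.6, so its step was 1.16 ± 0.44 at pH 5.7 and -2.54 ± 0.44 at pH 4.6. AT4G30320, a secreted protein of the CAP superfamily, had 413 and 1276 intensity units in zone 3 and 42.4 and 18.2 in zone 2 at pH 5.7, and 85 and 67.6 units in zone 3 and 49.5 and 151 in zone 2 at pH 4.6. AT4G30670 had 6573 and 11560 intensity units in zone 3 and 707 and 613 in zone 2 at pH 5.7, and 3151 and 2320 units in zone 3 and 1715 and 3448 in zone 2 at pH 4.6. With each of the 8 arrays left out in turn, AT4G30320 and AT4G33730 kept their call in 2 fits, AT5G24570 and AT4G30670 in 5, AT1G05340 in 6 and AT2G35380 in 7, and the other 6 in all 8. Without the arrays of raised plastid mean, only 1 probe set passed the test of the difference.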

How the results depend on the processing

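The number of probe sets that passed for zone 3 over zone 2 at pH 5.7 was 4943. It stayed within 1.5 times that number with a pseudocount of 1 (4620) or 64 (5114), no filter on dim values (4655), a filter at the 60th percentile (4962), median centring (4792), quantile normalization (5184), no intensity trend (4756) and without the arrays of raised plastid mean (3331). It was 2536 with only the 4 arrays of the comparison in the fit, which has 2 residual degrees of freedom. With 1 of the 4 arrays left out it ran from 3368 (without zone 2 replicate 1) to 5627 (without zone 3 replicate 1). With the replicate block it was 5044. Replicate numbers were not taken to pair the samples. Correlations of same-numbered deviations between groups ran from -0.232 to 0.394, with 10 of 28 above 0.1. The correlation was 0.343 between zones 2 and 3 at pH 5.7. Among zones 2, 3 and 4 at pH 5.7 and zone 3 at pH 4.6, the groups with arrays of raised plastid mean, it ran from 0.272 to 0.394. The block took 1 replicate difference for all 8 groups. Whether same-numbered arrays of these zones belong together was not tested. At pH 4.6 the count was 3142, with 1447 (without zone 2 replicate 1) to 2137 (without zone 2 replicate 2) when 1 array was left out. For the difference between pH values it was 80, and 44 with a pseudocount of 1, 171 with 64, 1 without the arrays of raised plastid mean, 30 with only the arrays of the comparison and 20 to 547 with 1 array left out. The cause was not tested, except that fewer arrays entered in the last 3.

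No gene or list value named for the step at pH 5.7 reversed its sign among called results in any setting. All settings drew on the same arrays, so a reversal was unlikely from the start. Of 189 named genes that passed, 49 lost their call without the arrays of raised plastid mean, 56 with only the 4 arrays, 21 to 41 with 1 array left out and 3 under the replicate block. A search for motifs in promoters was planned and not run, as no promoter sequence was at hand. With 2 arrays per zone, an exact permutation test cannot go below p = 0.333. Detection calls were not used, so levels near the pseudocount are uncertain.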
